A study of Ictidomys tridecemlineatus with 15 samples.

Results

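Head-to-head neighbours are genes that lie on opposite strands and are transcribed away from each other, starting close together. Nascent transcription of such genes was measured by global run-on sequencing (GRO-seq) in liver of 13-lined ground squirrels, and the question was whether the partners of a pair changed together across the hibernation cycle. A member was a transcription unit that carried 1 gene name, was at least 10000 nt and shorter than 200000 nt long, and whose nearest upstream unit lay on the opposite strand at a gap of 1 to 5000 nt. Of the 6324 units counted, 4056 carried 1 name and had this length, and 483 of these were members. They formed 318 pairs. In 165 pairs both units were members, and in 153 pairs the partner was a merged unit of several genes or lay outside the length limits. In 208 pairs both units carried 1 gene name.

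The livers came from female, colony-bred animals, each frozen in 1 of 5 states. SA animals were homeothermic, before the onset of hibernation. IBA animals were interbout aroused, that is, warm between bouts of torpor, Ent animals were entering torpor, and ET and LT animals were in early and late torpor. There were 3 libraries for each of SA, IBA, Ent and ET, and 2 for LT, 1 animal each. The animals were collected in 3 seasons, and ET animals were alone in theirs, so that ET and its season cannot be told apart. The comparison of IBA with LT also depended on whether season was in the fit. That fit takes season to act alike in all states, and this was not tested. There, 107 members passed without season in the fit and 26 with it, and pairs changed in the same direction went from 11 to 0. How much of the IBA to LT change goes with season was not tested. The p-values measure the spread between these animals.

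Many mammalian promoters start RNA polymerase II in both directions. Where a gene begins on each side, the region between the starts serves both, and shared nucleosome-free DNA and shared factors have long been thought to couple the genes. Textbook examples are subunits of 1 complex, such as the mitochondrial chaperonins Hspd1 and Hspe1 and the trifunctional protein subunits Hadha and Hadhb. GRO-seq is suited to the question because it counts engaged polymerases and not RNA that has accumulated.

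The gap between partners had a median of 1169 nt. Since the first 500 nt after each start had been left out of the units, a gap of 1000 nt means starts that meet. The gap was 1000 to 1500 nt in 203 of 318 pairs (63.8%), under 1000 nt in 40 and over 1500 nt in 75. Symbols of both partners matched a protein-coding gene of the RefSeq annotation (mIctTri1.hap1) in 218 pairs. In that assembly the matched genes of all 218 pairs lay on 1 chromosome, and in 188 they were next to each other among protein-coding genes. The pairs lay on 19 of the 23 chromosomes or scaffolds of the table. Member length had a median of 33598 nt.

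Between 3713883 and 8884763 reads per library were counted. Every member had at least 10 counts in every library, and the lower partner of a pair had a median of 245 counts per library, with a range of 104 to 2398. Among markers of liver cell types, 6 of 10 hepatocyte markers had a unit of their own, with a summed level of 8725 to 13360 CPM, the count scaled to the normalized library size, in IBA and 4692 to 6987 in LT. Endothelial markers (2 of 5 with a unit) summed to 166 to 184 CPM in IBA and 73.8 to 91.2 in LT, and the 1 of 4 cholangiocyte markers with a unit, Sox9, to 16.5 to 36.0 and 7.07 to 10.1. None of the 6 macrophage or 6 stellate markers had a unit of its own. These marker levels moved with the states, and their part in the results was not tested. Fewer cells of a type and less transcription per cell cannot be told apart in whole liver.

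Of the 483 members, 141 (29.2%) changed among the 5 states at an adjusted p of 0.001, against 25.5% of all units. Units were tested in edgeR with the quasi-likelihood method and p-values adjusted over the 6324 units (Benjamini-Hochberg), here and wherever a single unit is called. Counts were scaled to each library, so a rise or fall is relative to the other units of that library. A change in total transcription between states was not measured. From IBA to LT, 57 members rose and 50 fell, which is 22.2% of members, and the background was 9.69% of all units higher and 7.73% lower in LT. The median log2 fold change from IBA to LT was -0.07 over members and -0.05 over all units. Between Ent and ET, 9 members rose and 3 fell, where 1.01% of all units rose and 1.2% fell. The calls rested on few animals. The 107 calls from IBA to LT became 19 without LT replicate 1, 28 without LT replicate 3, 50, 45 and 51 without IBA replicates 1, 2 and 3, and 26 with season as a covariate. The 12 calls between Ent and ET became 7 without SA replicate 3, 4 without any 1 IBA library, 0, 0 and 4 without Ent replicates 1, 2 and 3, and 1, 0 and 2 without ET replicates 1, 2 and 3. The 141 calls among states became 93 without IBA replicate 2 and 90 without LT replicate 1. No member passed in the other transitions, in which 0.0158% (SA to IBA), 0.0316% (IBA to Ent) and 0% (ET to LT) of all units passed in edgeR. At an unadjusted p under 0.05, edgeR counted 80, 175 and 41 members in these transitions, and DESeq2 called 13, 35 and 2 at an adjusted p of 0.001.

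The partners of called members had little net change in the direction of the called member. The 107 members called from IBA to LT had a median absolute log2 fold change of 1.28. Their partners' median log2 fold change, taken in the direction of the called member, was 0.04. The partner was called in the same direction for 17 of the 107 and in the opposite direction for 2. Over all units, 9.69% were called higher and 7.73% lower in LT. For the other 88 the partner was not called, with a fold change of the same sign in 39 and of the opposite sign in 49.

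Over all 318 pairs, the log2 fold changes of the partners from IBA to LT had the same sign in 161 (50.6%). The same units recombined into every possible non-adjacent pair, 100806 combinations in all, gave 50.1%. Of 95 same-strand neighbours within the same gap limits, 54 (56.8%) had the same sign, and of 96 tail-to-tail neighbours, 51 (53.1%). The classes differ in more than orientation. Median gaps were 1169 (head-to-head), 3232 (same-strand) and 1475.5 nt (tail-to-tail). The 500 nt left out after each start widen both ends of a head-to-head gap. They widen only the downstream end of a same-strand gap and neither end of a tail-to-tail gap. The paper proposes that transcription in torpor runs past gene ends into adjacent genes. The part of such read-through in these values was not tested. Across head-to-head pairs the correlation of the partners' fold changes was r = 0.17, against 0.32 in same-strand and 0.13 in tail-to-tail pairs. These are correlations across pairs, which share the libraries and are not replicates. The partners' changes differed by a median of 0.86 on the log2 scale, and those of non-adjacent combinations by 0.87. The other transitions gave the same sign in 54.7% (SA to IBA), 48.7% (IBA to Ent), 52.5% (Ent to ET) and 56.0% (ET to LT) of the head-to-head pairs. In the same order, non-adjacent combinations gave 50.2%, 50.0%, 50.0% and 50.2%. Same-strand neighbours gave 56.8%, 58.9%, 53.7% and 50.5%, and tail-to-tail neighbours 65.6%, 58.3%, 51.0% and 50.0%.

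**Figure D1:**
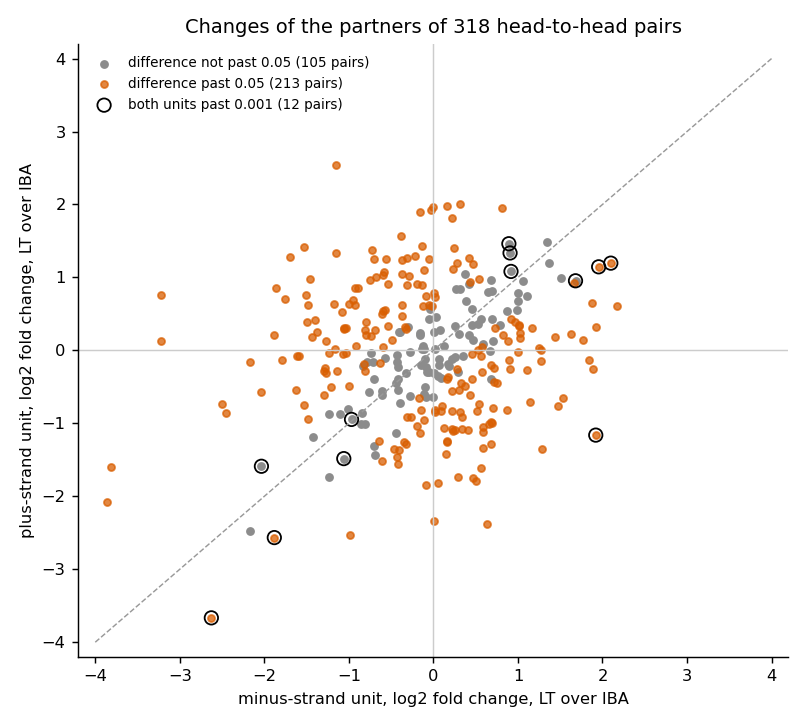
Log2 fold change from IBA to LT of the minus-strand unit (horizontal axis) against that of the plus-strand unit (vertical axis) in 318 head-to-head pairs, with equal changes on the dashed line. Orange points (213 pairs) passed the test of a difference between partners and grey points (105) did not. Circles mark the 12 pairs with both units called. The points spread over all 4 quadrants, with 161 of 318 pairs on the same side of 0 for both units.

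In 12 of 318 pairs both partners were called from IBA to LT. In 6 both rose, in 5 both fell and in 1 they moved in opposite directions. The 11 pairs of 1 direction are 3.46% of the pairs, against 2.15% of non-adjacent combinations, and the pair of opposite directions is 0.314%, against 2.22%. Same-strand neighbours had 2 such pairs of 95 in the same direction and 0 in opposite directions in edgeR, where an adjusted p of 0.05 gave 8 and DESeq2 gave 2. Tail-to-tail neighbours had 3 of 96 (3.13%) in the same direction and 1 in opposite directions. At an adjusted p of 0.05 in edgeR, 51 head-to-head pairs (16.0%) moved in 1 direction and 36 (11.3%) in opposite directions, and non-adjacent combinations gave 14.8% of each. In the same direction at this threshold were also 16 same-strand pairs (16.8%) and 16 tail-to-tail pairs (16.7%). DESeq2 at 0.001 gave 26 (8.18%) and 12 (3.77%), against 6.56% and 6.58% of combinations. The count of 11 rests on few libraries, since without LT replicate 1 or LT replicate 3 it was 0, 3 without IBA replicate 1 or 2, 4 without IBA replicate 3, and 7 without Ent replicate 2 or ET replicate 3. The count of 1 was 0 without any 1 of the IBA and LT libraries or ET replicate 3, and 2 without any 1 SA library. With season as a covariate both counts were 0.

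Among pairs that rose together were genes of iron-sulfur assembly, pyruvate oxidation, splicing and ubiquitination. Iscu, the scaffold on which iron-sulfur clusters are built, lay 2084 nt from Sart3, a factor that recycles spliceosomal U4/U6 snRNPs (chromosome 2 of HiC_Itri_2, Iscu at chr2:144969896-144983512 on the minus strand and Sart3 at chr2:144985597-145025117 on the plus strand). Iscu had 30.1, 44.3 and 34.0 CPM in the IBA libraries and 140.1 and 170.1 in LT, a log2 fold change of 2.10 (SE 0.24, adjusted p = 3.93e-05). Sart3 went from 53.7, 57.9 and 60.03 CPM to 141 and 121 (1.20, SE 0.20, adjusted p = 0.000468). Both LT libraries were above all 3 IBA libraries for each gene, but Iscu rose more, by 0.92 on the log2 scale (95% interval 0.50 to 1.34).

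Pdhx, a structural subunit of the pyruvate dehydrogenase complex, and Apip, a dehydratase of the methionine salvage pathway, lay 1127 nt apart on chromosome 3 (chr3:30022563-30090822 and chr3:30091950-30114430). Pdhx had 84.4, 67.7 and 77.0 CPM in IBA and 149 and 137 in LT, and Apip 17.6, 16.1 and 16.6 CPM in IBA and 43.2 and 41.4 in LT. Neither gene overlapped between the states. The log2 fold changes were 0.91 (SE 0.15) for Pdhx and 1.34 (SE 0.20) for Apip, and the partners' difference of -0.42 had a 95% interval of -0.83 to -0.01 and an adjusted p of 0.0663 in limma.

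Fbxo45, the substrate adaptor of a ubiquitin ligase, and the WD-repeat gene Wdr53 (gap 1287 nt, chromosome 7) also rose together. Fbxo45 had 14.8, 11.7 and 11.97 CPM in IBA and 48.2 and 50.8 in LT (log2 fold change 1.95, SE 0.18). Wdr53 had 17.9, 17.3 and 23.6 CPM in IBA and 47.9 and 39.3 in LT (1.15, SE 0.19). Again the states did not overlap, and Fbxo45 rose more by 0.79 (95% interval 0.25 to 1.34).

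The remaining pairs that rose held 3 units without a full gene name. Chd1, a chromatin remodeller, rose by 0.95 (SE 0.16) and its partner G2584, an unnamed locus, by 1.68 (SE 0.30). The merged unit that contains Snrpd3, a core protein of spliceosomal snRNPs, rose by 0.89 (SE 0.16) and Gucd1 by 1.46 (SE 0.25). Lrrc41, a leucine-rich repeat gene, rose by 0.92 (SE 0.14) and the unnamed ENSSTOG00000033129 by 1.08 (SE 0.20).

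Genes of DNA repair, cilia and transcription were among the pairs that fell together. Slx4ip, which binds the SLX4 nuclease scaffold of DNA repair, and Mkks, a chaperonin-like protein of the Bardet-Biedl group, lay 1521 nt apart on chromosome 5 (chr5:160475987-160656930 and chr5:160658452-160683231). Slx4ip had 127, 120.4 and 124 CPM in IBA and 28.3 and 38.7 in LT. Mkks had 79.9, 79.0 and 78.2 CPM in IBA and 10.9 and 15.8 in LT, far outside its IBA range. The log2 fold changes were -1.88 (SE 0.28) and -2.57 (SE 0.24), and Mkks fell further, by 0.69 (95% interval 0.20 to 1.17). Their means were already lower in Ent, at 60.8 ± 8.61 CPM (SD, n = 3) for Slx4ip and 47.8 ± 9.67 for Mkks.

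Nfya, the regulatory subunit of the CCAAT-binding factor NF-Y, lay 1425 nt from the merged unit with Oard1, an enzyme that removes ADP-ribose from proteins (chromosome 8). Nfya had 72.8, 65.4 and 60.0 CPM in IBA and 21.9 in each LT library. The unit with Oard1 had 54.6, 52.3 and 46.3 CPM in IBA and 9.83 and 15.0 in LT. The changes were -1.59 (SE 0.20) and -2.03 (SE 0.26), with a difference of -0.48 whose interval, -1.01 to 0.05, contained 0. Across all 14 libraries the r of these partners was 0.97.

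The transcription factor gene Gata6 fell, with a log2 fold change of -1.06 (SE 0.19), and so did its unnamed neighbour G9896, with -1.48 (SE 0.25). Elp3, the catalytic subunit of the Elongator complex, had -0.97 (SE 0.18) and Nuggc, a nuclear GTPase, -0.95 (SE 0.17). Their difference of -0.02 (95% interval -0.51 to 0.46) was the smallest of the 12 pairs. The unnamed neighbours G23507 and G23509 had log2 fold changes of -2.63 (SE 0.41) and -3.67 (SE 0.46).

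Alas1 and Poc1a moved in opposite directions from IBA to LT. Alas1 makes the first and rate-limiting enzyme of heme synthesis, and Poc1a a centriole protein, 1117 nt apart on chromosome 7 (Poc1a at chr7:66663179-66734790 on the minus strand, Alas1 at chr7:66735908-66778089 on the plus strand). The Alas1 coordinates are the outer ends of a unit of several segments, with a counted length of 22157 nt, so that it may hold more than this gene. Poc1a had 16.8, 21.5 and 20.6 CPM in IBA and 77.1 and 72.2 in LT (log2 fold change 1.92, SE 0.24, adjusted p = 5.74e-05). Alas1 had 366, 419 and 375 CPM in IBA and 158 and 188 in LT (-1.16, SE 0.20, adjusted p = 0.000597). In SA both stood higher than in IBA, at 58.0 ± 15.7 CPM (SD, n = 3) for Poc1a and 978 ± 7.59 for Alas1, with log2 fold changes from SA to IBA of -1.55 (SE 0.22, adjusted p = 0.00294 in edgeR) and -1.34 (SE 0.18, adjusted p = 0.00265) that did not pass 0.001. The ratio of the partners therefore moved by 3.09 on the log2 scale from IBA to LT (95% interval 2.57 to 3.62).

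**Figure D2:**
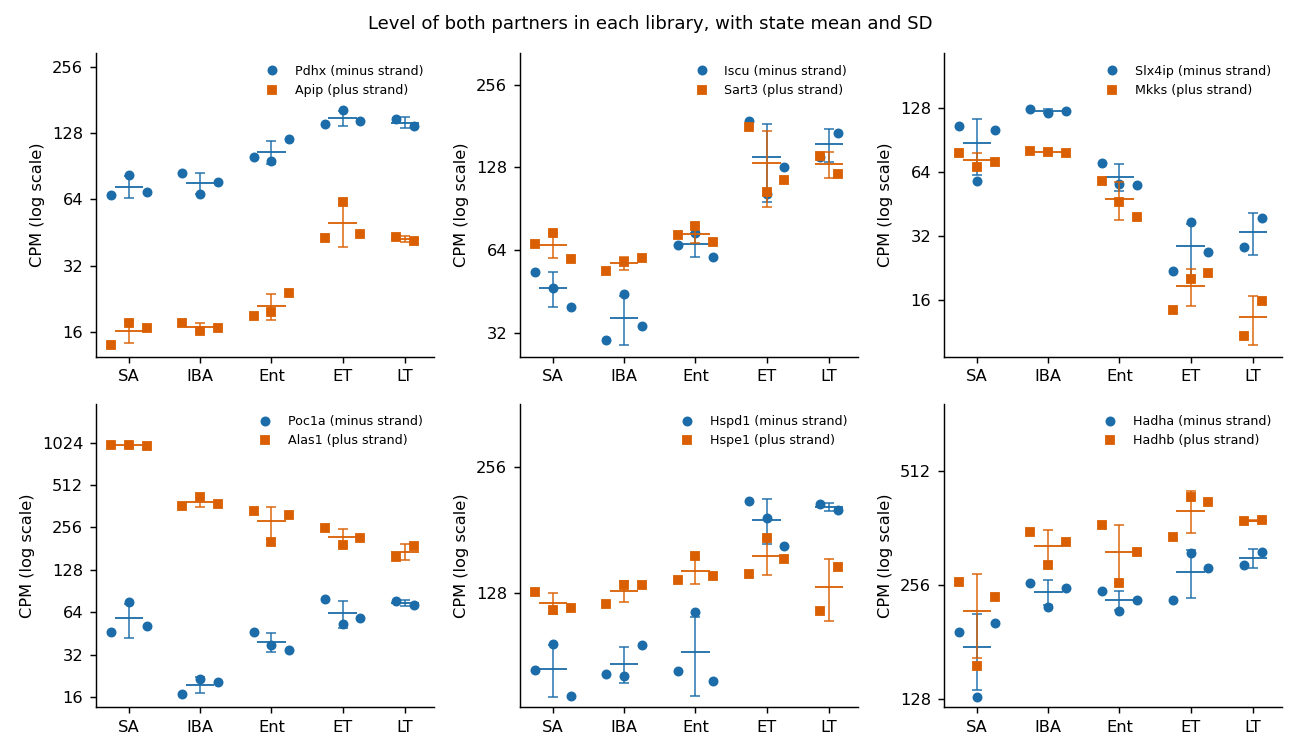
CPM (log scale) of both partners of 6 head-to-head pairs in each of the 14 libraries, grouped by state, with 1 point per library, circles for the minus-strand unit and squares for the plus-strand unit. Horizontal lines and bars are the state mean and SD. Pdhx with Apip and Iscu with Sart3 rise in ET and LT, Slx4ip with Mkks fall, Poc1a and Alas1 part, Hspd1 rises from 86.6 CPM in IBA to 205 in LT beside Hspe1 at 129.5 and 132, and Hadha and Hadhb vary together within the states.

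The difference between partners was tested directly. For each of 651 adjacent pairs of any orientation, the log2 ratio of the partners' counts was compared between states with limma, which removes every library-wide scaling. From IBA to LT, the partners changed differently at an adjusted p of 0.05 in 213 of 318 head-to-head pairs (67.0%). The background over all 651 adjacent pairs, which include these 318, was 63.4%. Non-adjacent combinations were not put through this test. Among same-strand neighbours it was 55 of 95 (57.9%), and among tail-to-tail neighbours 59 of 96 (61.5%). Over the 5 states 258 head-to-head pairs (81.1%) were called, against 77.4% of all adjacent pairs. In sequence, the head-to-head pairs called numbered 5 for SA to IBA (background 1.69%), 99 for IBA to Ent (29.3%), 152 for Ent to ET (42.5%) and 9 for ET to LT (2.92%).

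Of the 213 pairs called from IBA to LT, 133 had fold changes of opposite sign and 80 of the same sign but unequal size. The change differed over 2-fold in 134 pairs and over 4-fold in 26. Of the 105 pairs not called, 60 had a 95% interval of the difference that lay within 2-fold either way, and for the other 45 the interval reached past it.

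In each of the 4 pairs with the largest differences besides Poc1a and Alas1, 1 partner changed over 4-fold. G22352, an unnamed locus on chromosome 3, fell from 53.1, 44.5 and 52.7 CPM in IBA to 3.48 and 7.22 in LT (log2 fold change -3.22, SE 0.38). The unit of Zcchc6, an RNA uridylyltransferase, and Isca1, an iron-sulfur assembly factor, stood 4718 nt away at 475, 525 and 539 CPM in IBA and 940.1 and 793 in LT (0.76, SE 0.17, adjusted p = 0.00333). Slc25a29, a mitochondrial carrier of basic amino acids, rose from 26.4, 24.7 and 25.4 CPM to 117 and 181 (2.55, SE 0.23). Its neighbour, a merged unit with the mitochondrial carrier gene Slc25a47, had 850.0, 1716 and 1406 CPM in IBA and 551 and 640.0 in LT (-1.15, SE 0.43, adjusted p = 0.0389).

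G5096, another unnamed locus, fell by 3.22 (SE 0.44) beside Dennd2d, a Rab activator, whose log2 fold change was 0.12 (SE 0.20). Tbccd1, a gene of centrosome and Golgi positioning, fell by 2.38 (SE 0.29) beside Dnajb11, a cochaperone of the endoplasmic reticulum, with 0.64 (SE 0.38, adjusted p = 0.178). Tbccd1 had 52.9, 35.5 and 41.0 CPM in IBA and 8.01 and 8.54 in LT, while Dnajb11 had 49.4, 25.1 and 26.7 and then 48.5 and 55.8, with overlapping states.

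**Figure D3:**
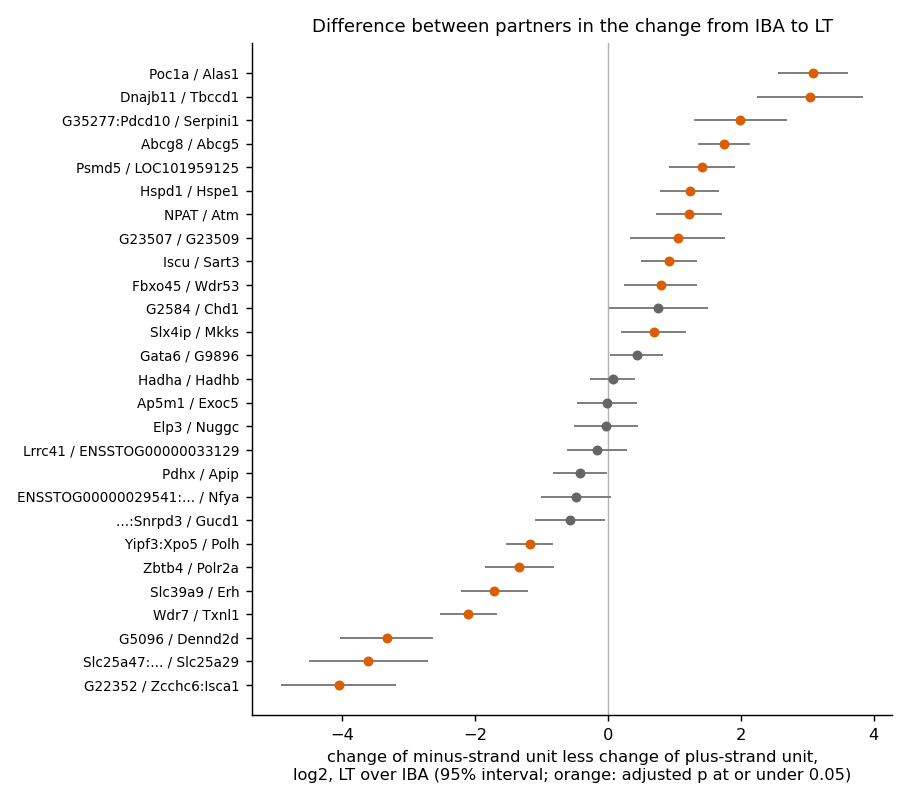
Change of the minus-strand unit less that of the plus-strand unit from IBA to LT (log2) for 27 head-to-head pairs chosen by the naming rule, a known pairing or a shared function, with 95% intervals. Orange marks an adjusted p of 0.05 or less in limma. Differences run from -4.05 (G22352 and the unit of Zcchc6 and Isca1) to 3.09 (Poc1a and Alas1), and Elp3 with Nuggc, Ap5m1 with Exoc5 and Hadha with Hadhb lie near 0.

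Of 15 head-to-head pairs known from textbooks of mammalian genetics, 6 were present. Hadha and Hadhb, which encode the alpha and beta subunits of the enzyme that oxidizes long-chain fatty acids in mitochondria, held together most closely. Hadha had 259, 224 and 251 CPM in IBA and 289 and 313 in LT, and Hadhb 353, 288 and 331, then 377 and 379.7. Neither was called (log2 fold changes 0.30, SE 0.18, and 0.22, SE 0.21). Their difference of 0.07 had a 95% interval of -0.26 to 0.41. Over the 14 libraries r was 0.96, and 0.91 within states. SA replicate 2 was the lowest library for both, at 130.1 CPM for Hadha and 157 for Hadhb.

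Hspd1 and Hspe1, the large and small subunits of the mitochondrial chaperonin, did not change alike. Hspd1 rose from 82.1, 81.3 and 96.3 CPM in IBA to 209 and 202 in LT (log2 fold change 1.24, SE 0.18, adjusted p = 0.000163). Hspe1 had 121, 134 and 134 CPM, then 116 and 148, with overlapping states (0.03, SE 0.14). The difference was 1.23 (95% interval 0.78 to 1.68, adjusted p = 0.000173 in limma). The unit named Hspe1 was 40194 nt long, so that it may hold more than this gene.

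NPAT, a coactivator of histone genes, and Atm, the kinase that signals DNA breaks, likewise parted. NPAT rose by 1.43 (SE 0.21), from 43.2, 38.7 and 39.6 CPM to 129 and 89.3, whereas Atm had 54.8, 42.2 and 52.0 CPM and then 60.6 and 52.0 (0.18, SE 0.22). Polh, a DNA polymerase that copies past UV damage, rose by 1.40 (SE 0.13) beside the unit of Yipf3 and Xpo5, the exporter of microRNA precursors, at 0.24 (SE 0.15). The partners of both pairs changed differently, by 1.22 (95% interval 0.72 to 1.72) for NPAT less Atm and by -1.18 (-1.53 to -0.82) for the unit of Xpo5 less Polh. In the pair of Pdcd10 and Serpini1 neither unit passed 0.001. The unit with Pdcd10, a vascular signalling adaptor, had a log2 fold change of 0.68 (SE 0.16) and Serpini1, a protease inhibitor, of -1.29 (SE 0.36), and their difference of 1.99 passed (95% interval 1.29 to 2.70).

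Symbol lists put genes of 8 functions among the members, and in 5 pairs both partners fell in 1 list. Abcg5 and Abcg8, the half-transporters that together export sterols into bile, were among them. Abcg5 fell from 53.4, 64.4 and 62.1 CPM in IBA to 13.3 and 20.03 in LT (log2 fold change -1.85, SE 0.31, adjusted p = 0.000467), and Abcg8 had 288, 308 and 289 CPM, then 223 and 332 (-0.09, SE 0.27). Their difference was 1.75 (95% interval 1.36 to 2.14), and yet the 2 genes varied together between animals of a state, with r = 0.93. Zbtb4, a repressor that binds methylated DNA, and Polr2a, the large subunit of RNA polymerase II, differed by -1.33 (95% interval -1.85 to -0.81). Ap5m1, an adaptor protein subunit, and Exoc5, of the exocyst, differed by -0.01 (95% interval -0.47 to 0.44), with neither called. Hadha with Hadhb and Hspd1 with Hspe1 were the others.

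By function, splicing and RNA processing had 4 of 11 members higher in LT and none lower in edgeR, with a median log2 fold change of 0.57. At an unadjusted p under 0.05, 1 was lower in edgeR, and DESeq2 called 0 lower. The 82 other units of this list had 27 higher and 4 lower and a median of 0.50. Hnrnpa1 and Hnrnpdl, both RNA-binding proteins of spliceosomal regulation, rose by 1.92 (SE 0.18) and 1.95 (SE 0.19), and their partners Cbx5, a heterochromatin protein, and Enoph1, of methionine salvage, had 0.32 (SE 0.24) and 0.81 (SE 0.19). The splicing factor Srsf11 rose by 1.20 (SE 0.14) beside Lrrc40 at 0.28 (SE 0.23). Hnrnpa2b1 rose by 0.99 (SE 0.14) beside Cbx3, whose promoter it shares in mammals, at 0.55 (SE 0.23), a difference of 0.44 (95% interval -0.01 to 0.90).

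Mitochondrial proteins had 3 of 11 members higher and 1 lower (median 0.22), and the 77 others 14 higher and 4 lower (median 0.23). Timm9, a chaperone of mitochondrial import, rose by 1.26 (SE 0.19) beside Kiaa0586, a ciliary gene, at -0.32 (SE 0.21). Slc25a27, a mitochondrial carrier, fell by 2.53 (SE 0.43). Protein turnover had 3 of 13 members higher and 1 lower (median 0.39), and the 115 others 14 higher and 4 lower (median 0.18). The proteasome subunit Psmb1 rose by 0.97 (SE 0.14) beside the unit of Tbp, the TATA-binding protein, at 0.68 (SE 0.18, adjusted p = 0.00737), and their difference of 0.29 had an interval of -0.10 to 0.68.

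Liver metabolism and plasma proteins had 1 of 12 members higher and 2 lower (median -0.37), and the 88 others 3 higher and 14 lower (median -0.41). Besides Abcg5, the acyl-CoA dehydrogenase Acad10 fell by 1.06 (SE 0.19) beside the Ras-pathway gene Brap at 0.30 (SE 0.18). Abce1, which the list holds by its ABC symbol and which recycles ribosomes, rose by 1.02 (SE 0.13). DNA repair and replication had 1 of 11 members higher and 1 lower, Polh and Lig3, a DNA ligase (-1.27, SE 0.23), and the 22 others 1 higher and 2 lower. Members made up 33.3% of that list's units, the highest share among the 8 lists, and 11.9% of all units of eligible name and length were members. Transcription and chromatin had 2 of 22 members higher and none lower in edgeR, where 5 were lower at an unadjusted p under 0.05 and DESeq2 called 1 lower. The 157 others of this list had 12 higher and 11 lower. None of 10 trafficking genes passed in edgeR, where 1 was higher and 3 were lower at an unadjusted p under 0.05, and DESeq2 called 1 lower, and the 100 others had 4 higher and 3 lower. Of 2 aminoacyl-tRNA synthetases none passed in either tool, and 1 was lower at an unadjusted p under 0.05 in edgeR, and the 14 others had 1 higher and 2 lower.

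The median correlation of partners was higher within states than over all libraries. Over the 14 libraries, r between partners had a median of 0.24 and quartiles of -0.28 and 0.60, and it was above 0 in 203 of 318 pairs (63.8%). Non-adjacent combinations had a median of 0.01. With the state means subtracted, so that only differences between animals of the same state remained, the median rose to 0.41, with quartiles of 0.06 and 0.65 and 249 pairs (78.3%) above 0, and that of combinations was 0.02. Same-strand neighbours had medians of 0.29 across and 0.33 within states, tail-to-tail neighbours 0.13 and 0.13, and head-to-head neighbours with a gap over 5000 and up to 50000 nt 0.20 and 0.33. These values describe the classes, and the differences between classes were not tested.

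**Figure D4:**
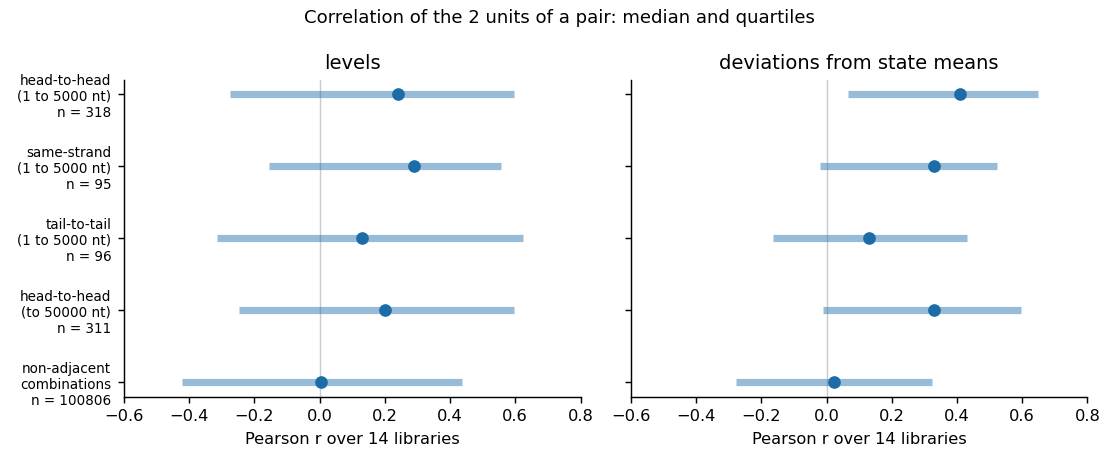
Pearson r between the 2 units of a pair over 14 libraries, as the median (point) and quartiles (bar) of each class, for levels in log2 CPM (left) and deviations from state means (right). Head-to-head pairs move from a median of 0.24 to 0.41, and non-adjacent combinations of the same units stay at 0.01 and 0.02.

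The 3 highest r among pairs of single names were those of Iscu with Sart3 (0.96), Hadha with Hadhb (0.96) and Pdhx with Apip (0.96). The 3 lowest were Psmd5, an assembly chaperone of the proteasome, with LOC101959125 (-0.90), Wdr7 with Txnl1, a thioredoxin-like protein (-0.89), and the zinc transporter Slc39a9 with Erh, a small nuclear protein (-0.82). These pairs were chosen by r, and r is a description of them. Txnl1 had 105, 108 and 123 CPM in IBA and 317 and 263 in LT, while Wdr7 had 581, 504 and 529 and then 330.0 and 318. Within states their r was 0.00, and that of Slc39a9 with Erh 0.12.

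The within-state correlation was not limited to immediate neighbours. Other units on the same chromosome, with midpoints under 200 kb apart, had a median within-state r of 0.23 over 6491 pairs. It was 0.15 from 200 to 1000 kb, 0.10 to 5000 kb, 0.05 to 20000 kb and -0.01 beyond. The midpoints of head-to-head partners lay a median of 39347 nt apart. Units of a chromosome share libraries and neighbours, so these pairs are not independent.

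**Figure D5:**
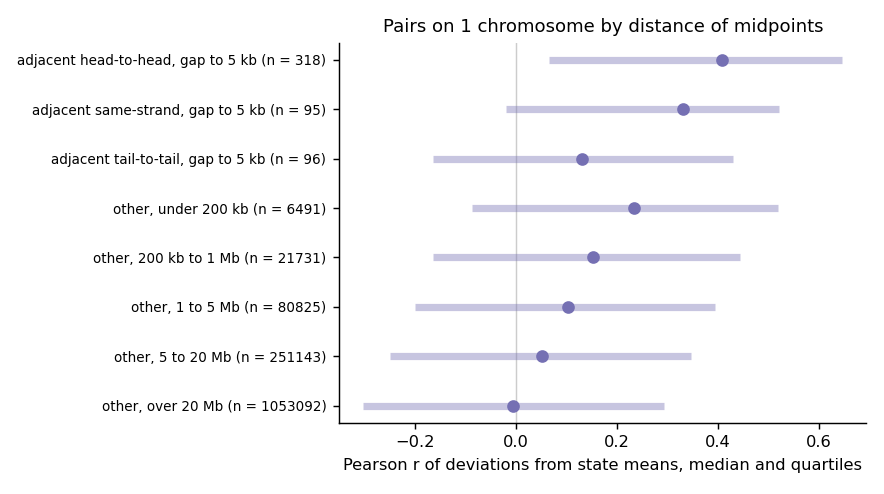
Within-state Pearson r (deviations from state means, 14 libraries) of pairs of units on 1 chromosome, as median (point) and quartiles (bar), for adjacent pairs by orientation and for all other pairs by the distance of their midpoints. The median is 0.41 in head-to-head, 0.33 in same-strand and 0.13 in tail-to-tail neighbours. Among the other pairs it falls from 0.23 under 200 kb to -0.01 over 20 Mb.

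Within the head-to-head pairs, the correlation did not rise or fall steadily with the gap. The median within-state r was 0.34 for the 40 pairs with gaps under 1000 nt, 0.38 for 73 pairs of 1000 to under 1100 nt, 0.42 for 61 of 1100 to under 1200 nt, 0.37 for 94 of 1200 to under 2000 nt and 0.47 for 50 of 2000 nt or more. The share called different from IBA to LT was between 64.0% and 68.5% in all 5 classes. In 3 classes of 106 pairs with rising level of the lower partner, within-state r was 0.37, 0.41 and 0.44, and r over all libraries was 0.20, 0.22 and 0.42. In single libraries, deviations from the state mean correlated across head-to-head pairs at r = 0.07 (IBA replicate 3) to 0.44 (ET replicate 1), above 0 in all 14. Same-strand pairs were also above 0 in all 14, at 0.03 to 0.86, and tail-to-tail pairs lay between -0.11 and 0.35. The 2 LT libraries deviate from their common mean by equal and opposite amounts, and so share 1 value (0.10 in head-to-head pairs). These deviations also correlated with log unit length over all units, at -0.21 to 0.23, and the part of unit length in the partner correlation was not tested. Subtracting the means of state and season together gave a median r of 0.44 for head-to-head, 0.39 for same-strand and 0.08 for tail-to-tail pairs.

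Partners differed in level nearly as much as non-adjacent units did. Per kb of unit, the partners' mean log2 CPM correlated at r = 0.10 across pairs, and their levels differed by a median of 0.97 on the log2 scale, against 1.05 in non-adjacent combinations. In 58 of 318 pairs (18.2%) the partners stood over 4-fold apart in CPM per kb, as did 20.8% of combinations. Alas1, at 15.6 CPM per kb, and Poc1a, at 0.624, were such a pair.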

How the data were processed

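The authors trimmed GRO-seq reads (cutadapt), aligned them with BWA to HiC_Itri_2, redefined gene bodies with fstitch, left out the first 500 nt after each start, merged overlapping genes of a strand and counted reads with featureCounts. What they deposited is the raw count of reads on each unit in 14 libraries. The third LT library, replicate 2, is not among these and was not analysed here. The paper states that its authors removed this library because of relatively poor quality and as an outlier in a principal component analysis. The reads were strand-specific. The strand setting of the counting is not given in the sources used here, and without it reads of a gene and its antisense strand cannot be told apart. No genome was used here, so sequences and GC content were not examined. Units of several segments were placed by their outer ends.

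Counts were scaled by TMM and fitted with edgeR 4.0.16 (R 4.3.3) to all 14 libraries with state as the factor, without a filter, with p-values adjusted over 6324 units. Ratios of partners' counts (0.5 added) were fitted with limma 3.58.1 over 651 adjacent pairs. A prior count of 2 went into log2 CPM. The steps were tested on simulated data. Alternatives included DESeq2 1.42.0, other scalings, season, a replicate block and each library left out. Named pairs were those with both partners called from IBA to LT (up to 6 in each class), the 4 largest partner differences, the 3 highest and lowest r, and listed pairs. The rule also took pairs with both partners called from Ent to ET, of which there were 0 in edgeR, 61 at an unadjusted p under 0.05 and 7 in DESeq2. Pairs with both partners in 1 symbol list were added after their values were seen. The members, the gene lists and the tests were chosen with earlier results of these data known. The values of 1 listed pair are not reported here.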

Additional observations from a re-analysis of the deposited data

How the results depend on the processing

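Of 275 alternatives run over 14 results, 213 left the value near that reported, 62 moved it and 0 reversed a sign. Near was set widely for counts, so that 98 members called among the 5 states was taken as near 141. For r it meant a shift below the SD of the values of single libraries. For the share of the same sign it meant inside a 95% binomial interval, which treats the pairs as independent although they share libraries. A reversed sign could arise only for the median r, over all libraries and within states, since counts and shares have no sign. The 213 include counts of 0 members that stayed 0, in 19 alternatives for SA to IBA, 19 for IBA to Ent and 18 for ET to LT. The cause of these moves was not tested. The 24 units of the 12 pairs with both partners called kept their sign in every alternative fit and with each library left out. They were chosen for large changes in the same data, so a kept sign was likely in advance and adds no support. Hspe1, near 0 in the fit reported, was negative with season, and with 1 library left out it ran from -0.16 to 0.19, Abcg8 from -0.40 to 0.17 and the unit of Yipf3 and Xpo5 from -0.02 to 0.46. Other scalings shifted the median log2 fold change of all units from IBA to LT by -0.03 to 0.03. All of them scale to the library, so they do not bear on a change in total transcription. The paper states that library-size scaling hides differences in total transcription between states. Leaving out 1 library gave 90 to 143 members called among the 5 states, 19 to 113 from IBA to LT, 0 to 15 from Ent to ET and 0 in the other transitions, 0 to 12 pairs called in the same direction and 0 to 2 in opposite directions, 159 to 222 and 237 to 261 pairs with partners changed differently (IBA to LT and 5 states), 49.4% to 51.9% of pairs with the same sign, and a median r of 0.23 to 0.27, or 0.37 to 0.44 within states. An arm left with 1 LT library is assumed to vary like the other groups. DESeq2 called 274 members among the 5 states, 179 from IBA to LT, 96 from Ent to ET, and 13, 35 and 2 from SA to IBA, IBA to Ent and ET to LT, with 26 pairs in the same direction and 12 in opposite directions. At an adjusted p of 0.05 these counts were 315, 263, 163, 20, 91, 1, 51 and 36. With partner differences at an adjusted p of 0.001, 105 pairs were called from IBA to LT and 137 over the 5 states. Season as a covariate left 26 members called from IBA to LT, 0 pairs in either direction and 171 pairs with different change; the 5-state test, Ent to ET and ET to LT could not be fitted with it. A gap of up to 2000 nt gave 7 pairs in the same direction, and up to 20000 nt 2 in opposite directions. The median r moved to 0.41 for deviations from state means and 0.44 for deviations from means of state and season, the latter chosen after seeing the data, as were the alternatives for the share of the same sign, for the within-state r (leaving out 1 library included) and for the number of pairs.

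With the replicate block, 98 members were called among the 5 states, 59 from IBA to LT, 4 from Ent to ET and 0 in the others, with 3 pairs in the same direction and 0 in opposite directions, and 198 and 243 pairs with partners changed differently. The labels do not say that a replicate number pairs animals. Libraries with the same number correlated at -0.26 to 0.23 in their deviations from state means, over 0.1 in 6 of 26 combinations, so the numbers were not taken as a pairing.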
